A study of Gallus gallus and Dromaius novaehollandiae and Alligator mississippiensis with 60 samples.

Results

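A set of 31 genes was high in chicken epidermis relative to chicken dermis and close to level across the feathers, claws and both scale kinds of the chicken embryo, and its levels were read here in the appendages of emu and alligator. The 31 genes were drawn from a table of 17889 genes. They were chosen by 4 conditions: a value in all 3 species, met by 6150 genes; a chicken epidermis mean at least 1.5 above the dermis mean on the log2(TPM + 1) scale, which left 255; a range of the 4 chicken appendage means below 0.7, which left 38; and a chicken feather change between stages below 0.8 in either direction, which left 31. TPM measures transcript abundance relative to gene length and to the total of the library, and 1 was added before the logarithm. Without the first condition, 73 genes met the chicken limits, and 42 of them had no emu or alligator value. Chicken values set the membership, so that chicken appendage and layer values are given as a description, and tests are given for emu, alligator and the chicken foot stages.

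The epidermis is the epithelial sheet of the skin, and the dermis is the connective tissue beneath it. Skin appendages arise where the epidermis thickens into a placode and the layers exchange signals, after which the epidermis folds or grows out and its cells harden with keratins and with the corneous beta proteins of birds and reptiles. Scutate scales are the large scales on the front of the bird foot, reticulate scales are the small rounded ones of the foot pad, and claws are hard sheaths at the digit tips.

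Epidermis of embryos of Gallus gallus, Dromaius novaehollandiae and Alligator mississippiensis, with dermis from chicken only, gave 60 libraries in 36 groups: 20 of chicken epidermis, 10 of chicken dermis, 18 of emu and 12 of alligator. No treatment or genotype beyond the species was given. Bird groups were feather (dorsal and femoral tract), claw, and scutate and reticulate scale, while alligator groups were claw, symmetric flank scale and asymmetric femoral scale, each at the placode and during morphogenesis, when the appendage takes shape. Birds were at Hamburger and Hamilton stage 33 to 34 (feather placode), 36 (feather morphogenesis and claw placode), 37 (scutate placode), 38 (claw morphogenesis), 39 (reticulate placode) or 40 (scutate and reticulate morphogenesis). Alligators were at Ferguson stage 22 (flank placode and claw morphogenesis), 21 (femoral and claw placode), 23 (flank morphogenesis) or 23 to 24 (femoral morphogenesis). Groups of epidermis held 2 libraries, except for 1 in the emu reticulate placode and 1 in the emu claw placode, and each dermis group held 1. Appendages therefore differed in embryo age as well as in kind.

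Chicken libraries had TPM totals of 994044 to 999897, emu libraries 549879 to 549939 and alligator libraries 619786 to 619877, and the read depth behind them is unknown. Levels are tested within a species only, and levels set side by side between species are a description. No library was an exact copy of another. In alligator the sequencing lane numbers in the labels split with the appendage, at 7 for flank scales, 3 for femoral scales, and 1 and 2 for claws, and the lane cannot be told apart from the appendage in that species. In emu, lanes 1 and 8 held the claws, 1 the reticulate scales and 2 the scutate scales. Those feather libraries that had a lane number were in lanes 2, 6 and 7. The emu reticulate and scutate libraries thus had no lane in common, and any difference between these scales is also one between lanes. Among emu libraries with a lane number, claw shared a lane only with reticulate scale (1), and feather only with scutate scale (2). An effect of lane on the emu contrasts was not tested. In chicken, no foot placode library of epidermis had a lane number. Those foot morphogenesis libraries of epidermis that had one were in lanes 1 and 8, and those dermis libraries that had one in lanes 7 and 8. An effect of lane in chicken was not tested either. The table names genes by chicken identifiers alone and none of them matched a symbol in the reference used here, so the genes carry no names or roles below, and no marker of keratinocytes or of other skin cells could be checked.

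The 31 genes spanned a wide range of abundance in chicken epidermis, with gene means from 4.0 to 801.6 TPM and a median of 61.8. ENSGALG00000008969 was the most abundant, with a lowest value of 537, a median of 801 and a highest value of 999 TPM over the 20 chicken epidermis libraries. ENSGALG00000000608 was next, at 280.2, 410 and 548 TPM. Both had the largest distance from dermis as well as the highest levels. The 10 dermis libraries held ENSGALG00000008969 at 42.2 (dorsal feather placode), 6.49 (femoral feather placode), 0.999 (scutate placode), 2.11 (reticulate placode), 48.3 (claw placode), 8.13 (dorsal feather morphogenesis), 12.7 (femoral feather morphogenesis), 2.73 (scutate morphogenesis), 8.46 (reticulate morphogenesis) and 1.64 TPM (claw morphogenesis). The dorsal feather placode and the claw placode were the high dermis libraries, and they were also the high ones for ENSGALG00000000608, at 15.1 and 28.2 TPM, against 0.494 to 8.07 TPM in the rest. These values were used in the selection and carry no test.

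Epidermis minus dermis, the first chicken limit, ran from 1.52 to 6.62 (log2) with a median of 2.35. It was 4 or more for 7 of the 31 genes and under 2 for 13. Dermis values expressed as a percent of the matching epidermis mean had a median over the genes between 9.72% (dorsal feather placode) and 21.1% (claw placode), and a single gene reached 69.8% at most. None of the 31 genes was above the epidermis mean in any of the 10 dermis libraries, which the layer limit, set on these same libraries, made likely in advance. In tissue extracts, fewer cells of a type and less RNA per cell cannot be told apart.

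**Figure D1:**
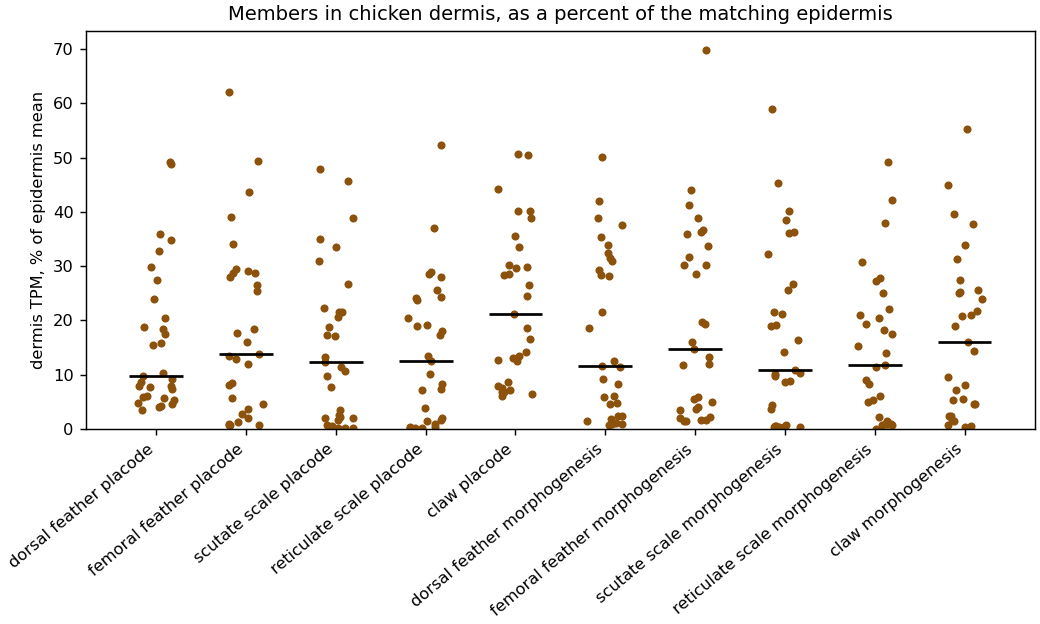
Level of each of the 31 genes in chicken dermis (y axis, percent of the mean epidermis TPM of the same appendage and stage) in each of the 10 dermis libraries (x axis), 1 library a column. Points are genes and bars are medians over the genes, which ran from 9.72% to 21.1% with the claw placode highest.

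The genes closest to the limits lay near genes left out. The smallest layer differences inside were 1.52 and 1.53, and the largest outside were 1.49 and 1.48. The largest appendage ranges inside were 0.70 (ENSGALG00000005610) and 0.65 (ENSGALG00000015233), with 0.71 and 0.72 just outside. The largest feather stage changes inside were 0.78 (ENSGALG00000015744) and 0.67, with 0.87 and 0.88 outside. Rescaling the chicken libraries by medians of ratios before applying the same limits also gave 31 genes, of which 17 were in the set described here, so the list depends on how the libraries are scaled. Leaving out the second chicken claw placode library kept 28 of the 31.

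The smallest chicken appendage range was 0.18 and the median 0.506. Within that narrow range, reticulate scale had the highest mean for 12 of the 31 genes, claw for 10, feather for 5 and scutate scale for 4, and feather had the lowest mean for 15. The summed TPM of the 31 genes was 3021.2 to 3712.9 in chicken feather, 3320.9 to 3719.6 in scutate scale, 3345.8 to 3751.5 in reticulate scale and 3025.7 to 3415.5 in claw, so that the 4 appendages overlapped.

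Genes abundant in chicken epidermis tended to be abundant in the other species. Across the 31 genes, mean log2 epidermis levels in chicken and emu had a Pearson r of 0.73 (Spearman rho 0.76), chicken and alligator 0.76 (rho 0.75) and emu and alligator 0.72 (rho 0.77). Over all 6150 genes with 3 values these were 0.84, 0.86 and 0.81 (Pearson) and higher than among the members in each pair. The points are genes, which are not independent replicates, and they share libraries. All 31 genes are included, also the 2 in emu and 2 in alligator whose low values kept them from being tested (below).

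A gene was tested in a species where it reached 1 TPM in at least 2 of its libraries, which held for 29 of the 31 genes in emu, 29 in alligator and 27 in both. In emu, ENSGALG00000014170 was listed at 0 in all 18 libraries and ENSGALG00000008057 in 16 of 18, with 0.0842 TPM as its highest value, although ENSGALG00000008057 ran from 47.8 to 80.0 TPM in chicken epidermis. In alligator, ENSGALG00000008006 was listed at 0 in 5 of 12 libraries, and it and ENSGALG00000012419 stayed below 1 TPM in all. ENSGALG00000012419 entered the emu fit only through the 3 reticulate scale libraries (1.326, 1.301 and 1.003 TPM), the only emu libraries in which it reached 1 TPM, and so its reticulate difference was tied to its entry. The emu counts below include it, and it is one of the genes called for any appendage difference (23 of 28 without it) and one of those with a small range (13 of 28 without it).

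The limit of 0.7 for the range across appendage means was then applied unchanged in the other species. In emu 14 of 29 tested genes (48.3%) lay below it, against 52.1% of all 7260 tested genes. The share was 14.5% for 214 other genes that were enriched in chicken epidermis. These had failed the chicken range limit, the feather stage limit or both. In alligator 18 of 29 (62.1%) lay below it, against 63.4% of all 7811 tested genes and 34.8% of 207 such other genes. Genes that met the chicken range and stage limits but not the layer limit were below 0.7 more often. Their shares were 69.0% of 2286 in emu and 72.0% of 2314 in alligator. The shares for the members were thus near those of the whole table in both species. They were above those of the other epidermis-enriched genes and below those of the other genes even in chicken. The median range was 0.73 in emu (0.67 over all genes) and 0.57 in alligator (0.52 over all genes). Emu has 4 appendages in this range and alligator 3, so the values of the 2 species are not on equal terms. These shares are descriptions with no test.

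**Figure D2:**
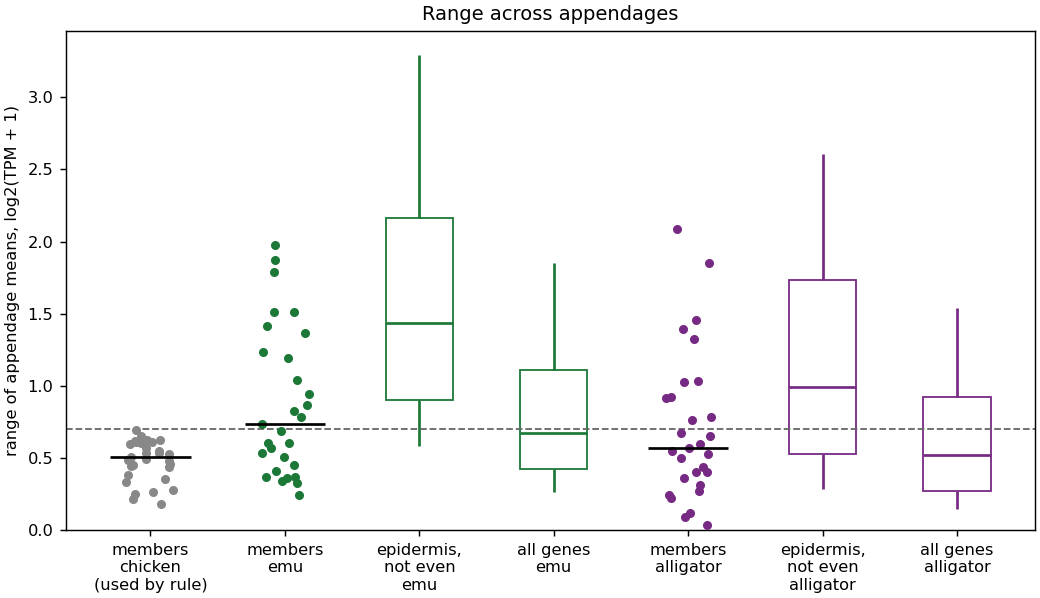
Range of appendage means, log2(TPM + 1) (y axis), for the 31 genes in chicken, where the range was used to choose them, and for the 29 tested in emu and in alligator, with the other epidermis-enriched genes and all tested genes beside them. Points are genes, black bars medians (0.506, 0.73 and 0.57), boxes the middle quartiles, whiskers the 10th to 90th percentile, and the dashed line the limit of 0.7.

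Of the 27 genes tested in both species, 7 were below 0.7 in both, 6 in emu only, 10 in alligator only and 4 in neither. The same split was not computed over all genes, so these counts are a description. The smallest emu ranges belonged to ENSGALG00000011329 (0.25) and ENSGALG00000016720 (0.33), and the largest to ENSGALG00000007132 (1.98) and ENSGALG00000010540 (1.87). The smallest alligator ranges belonged to ENSGALG00000003136 (0.04) and ENSGALG00000012850 (0.09), and the largest to ENSGALG00000000452 (2.08) and ENSGALG00000011296 (1.85). The same gene could be level in one species and not in the other: ENSGALG00000007132 had a range of 0.31 in alligator, and ENSGALG00000000452 had 0.51 in emu. A small range over appendage means did not mean level libraries: ENSGALG00000003136 in alligator claw stood at 10.0 and 12.7 TPM at the placode and at 5.87 and 7.27 TPM in morphogenesis.

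Appendage differences of any kind were called in emu for 24 of 29 genes, against 79.5% of all genes tested, and in alligator for 24 of 29, against 71.6%. A call is a Benjamini-Hochberg adjusted p below 0.05 over all genes of the species, in a limma fit of log2(TPM + 1). These counts are near the background. Among the 27 genes tested in both, 18 were called in both species and 1 in neither. The claw had the highest appendage mean for 13 of 29 genes in emu and for 18 of 29 in alligator. Feather had the lowest for 16 of 29 in emu. Shares over all genes were not computed for the calls in both species or for the highest and lowest appendage. Those counts are a description, and the species differ in their number of appendages.

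**Figure D3:**
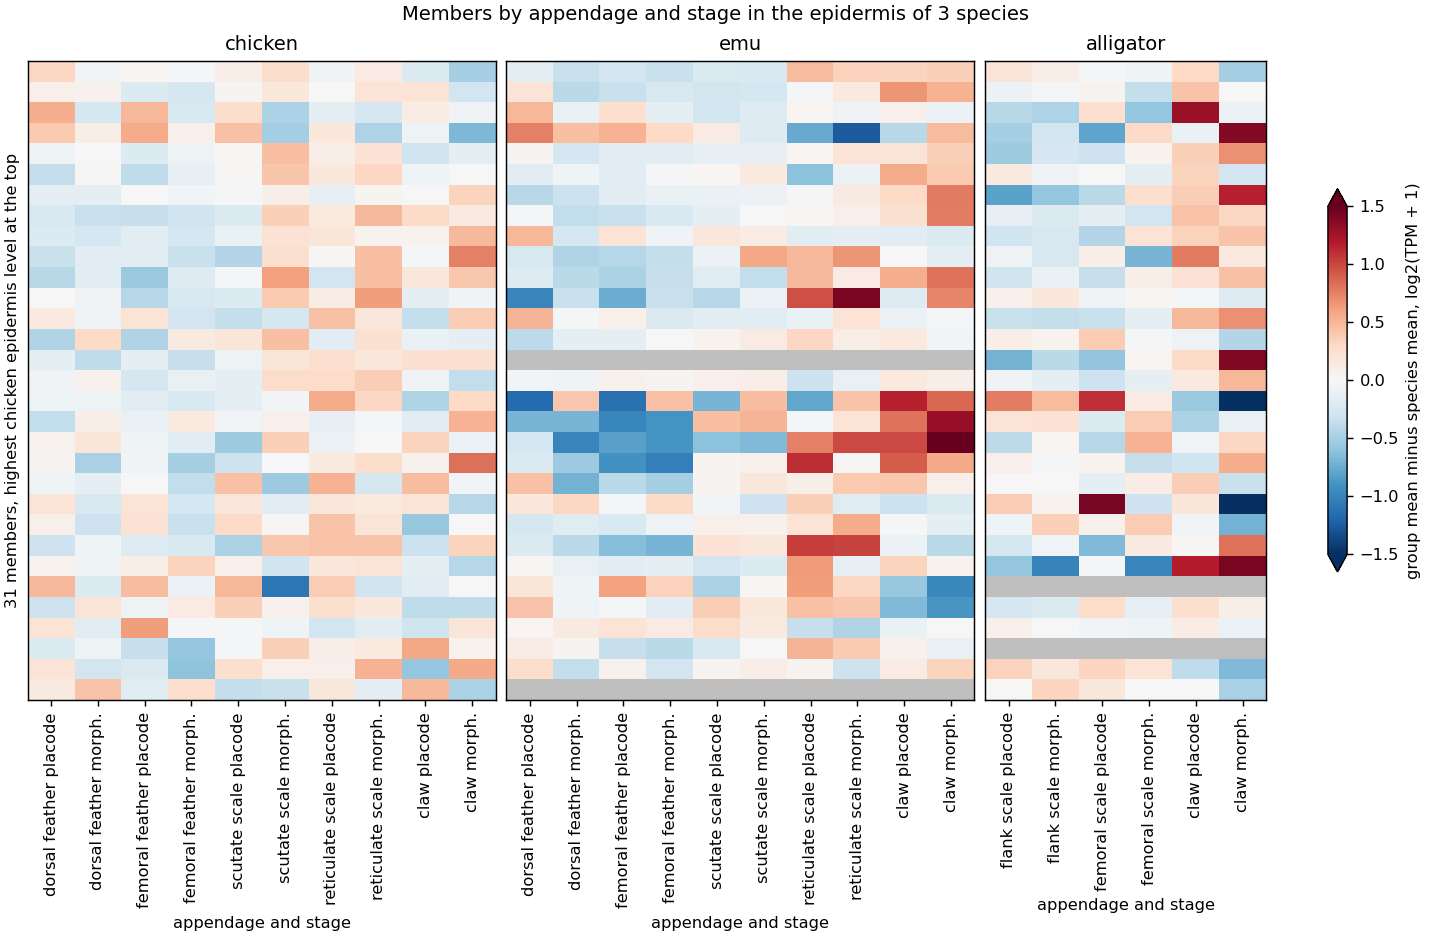
Deviation of each group mean from the species mean, log2(TPM + 1) (color), for the 31 genes in order of chicken epidermis level (y axis) by appendage and stage (x axis) in each species. Gray marks genes not tested in a species (2 in emu, 2 in alligator), and the colors are paler in chicken, where levelness was required, than in emu and alligator, where ranges reached 1.98 and 2.08.

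Emu claw epidermis held more of 13 of the 29 genes and less of 4 than the other emu appendages. All genes tested in this comparison were called at 63%, with 19% higher and 44% lower, so that most calls were higher among the members and lower in the table as a whole. Medians of ratios moved the median of all genes to -0.02, with 2111 genes higher and 2128 lower, while the members had 17 higher and 3 lower. This rescaling centers each library on its median ratio, so a table without a lean follows from it. The other epidermis-enriched genes were not counted after rescaling, so the lean is not shown to be particular to the members. Without rescaling, the median difference was 0.20 (log2) for the members and -0.21 for all genes. Summed TPM of the 31 genes was 3312.9 to 3692.3 in the 3 claw libraries, 3038.2 to 3071.1 in reticulate scale, 2519.5 to 2642.0 in scutate scale and 2278.5 to 3051.9 in feather. Claw did not overlap the others in this sum, which is weighted towards the most abundant genes. Single genes could overlap: ENSGALG00000008969 was at 924 to 1042 TPM in claw and at 1066 TPM in the reticulate placode. The 214 other epidermis-enriched genes had 95 higher and 71 lower (44.4% and 33.2%), against 44.8% and 13.8% of the members.

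ENSGALG00000007132 was the gene with the largest called emu claw difference. It stood at 18.7, 27.9 and 26.1 TPM in claw, at 15.8, 18.6 and 19.0 in reticulate scale, at 4.18, 7.07, 6.29 and 4.42 in scutate scale, and in feather at 3.67 (lowest), 4.54 (median) and 9.20 (highest). Claw and reticulate libraries were high and met at one claw library, while feather and scutate libraries were low and lay apart from both. The claw difference was 1.41 (SE 0.18, adjusted p = 3.06e-05), and all 20 chicken epidermis libraries lay between 15.7 and 50.6 TPM with no appendage apart.

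ENSGALG00000011296 was at 96.0, 81.7 and 73.4 TPM in emu claw, against 16.3 to 80.1 TPM in feather, 18.1 to 73.6 in scutate scale and 24.3 to 63.5 in reticulate scale. The claw libraries were high at both stages, and the feather and scutate libraries reached them only in morphogenesis. Its claw difference was 1.23 (SE 0.27, adjusted p = 0.00194). ENSGALG00000015123 went the other way, at 8.30, 8.16 and 6.04 TPM in claw and at 10.4 to 20.6 TPM in the other 15 emu libraries. Claw did not overlap them, and the difference was -1.01 (SE 0.13, adjusted p = 2.44e-05). The most abundant members were higher in emu claw by less: ENSGALG00000000608, at 408, 384 and 358 TPM in claw and at no more than 329 TPM elsewhere, by 0.73 (SE 0.08, adjusted p = 7.85e-06), and ENSGALG00000008969 by 0.38 (SE 0.10, adjusted p = 0.00513).

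**Figure D4:**
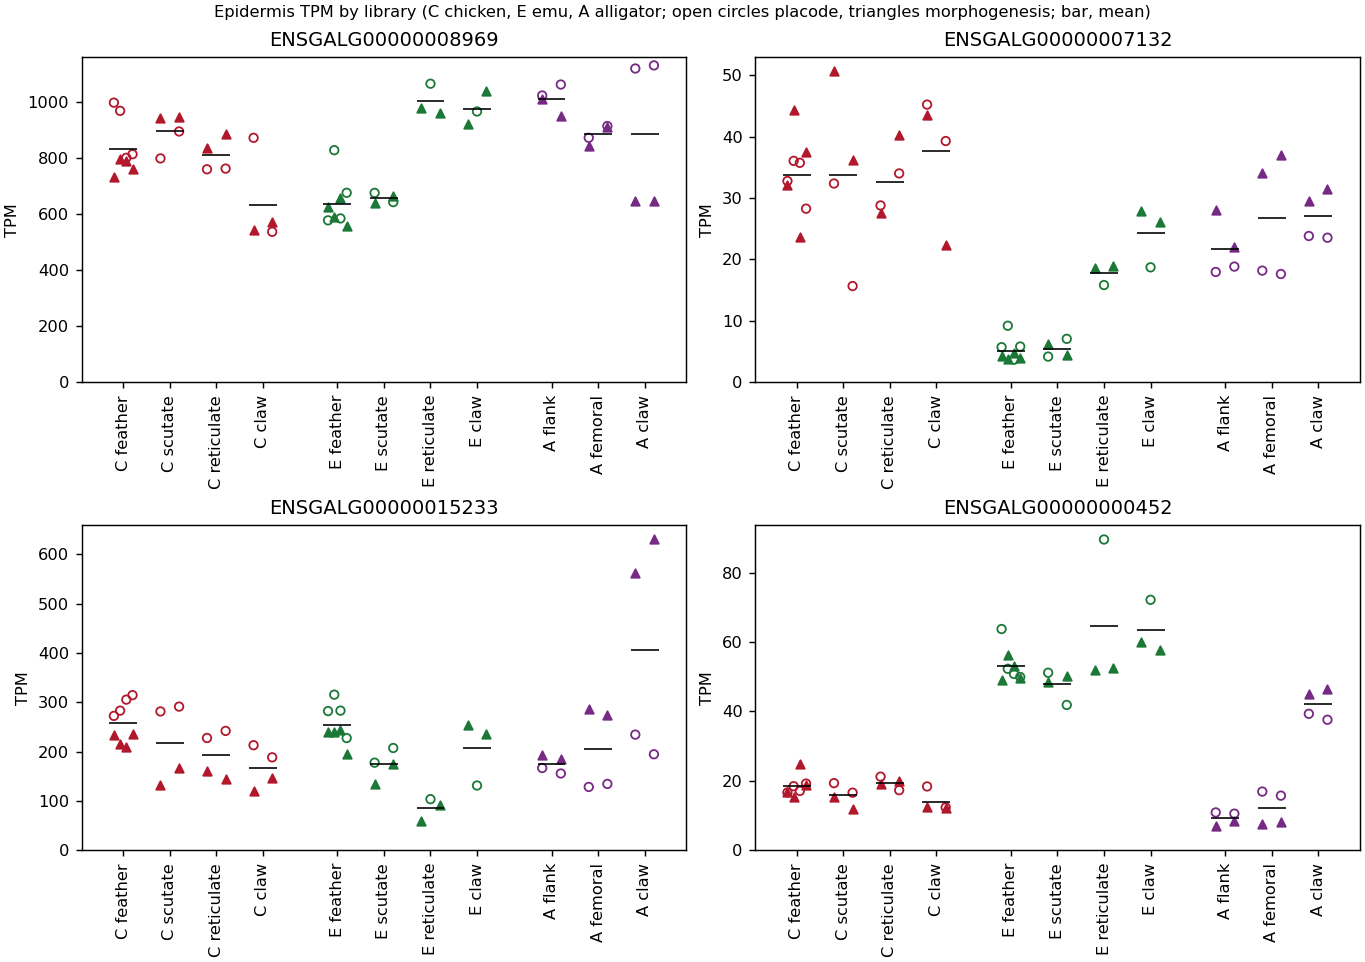
Epidermis TPM (y axis) of 4 genes by species and appendage (x axis; C chicken, E emu, A alligator). Each circle (placode) or triangle (morphogenesis) is a library and each bar a mean; ENSGALG00000007132 is high in emu claw and reticulate scale (15.8 to 27.9 TPM) and ENSGALG00000000452 in alligator claw (37.6 to 46.4 TPM).

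Emu feather held less of 15 genes and more of 3 than the mean of scutate and reticulate scale. The background was 50.2% called, 32.5% higher in feather and 17.7% lower, and ENSGALG00000012419, whose entry into the fit was tied to reticulate scale, is among the 15 lower (14 of 28 without it). With medians of ratios the table had 1733 genes higher and 1752 lower, a near balance that follows from the rescaling, and the members 2 higher and 18 lower. Without rescaling, the median was -0.23 for the members and 0.08 for all genes. The other epidermis-enriched genes, counted without rescaling only, leaned the same way as the members, with 110 of 214 lower and 33 higher. In chicken, where the difference entered the selection, the members' median was -0.28 and that of all genes 0.12.

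ENSGALG00000002804 was at 21.8 (lowest), 26.8 (median) and 38.3 TPM (highest) in the 8 emu feather libraries. It was at 42.6, 49.5, 44.9 and 43.6 TPM in scutate scale and at 81.6, 76.5 and 85.3 in reticulate scale. Feather was below both scales without overlap, and reticulate scale was above scutate scale. The feather difference was -1.10 (SE 0.07, adjusted p = 7.74e-07).

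ENSGALG00000010540 was at 5.93, 7.53 and 8.87 TPM (lowest, median, highest) in emu feather. Scutate libraries stood at 17.3, 21.6, 21.1 and 19.3 TPM and reticulate libraries at 13.58, 15.22 and 16.97. Feather was again apart, by -1.10 (SE 0.11, adjusted p = 1.25e-05). The largest difference towards feather was that of ENSGALG00000015233, at 195, 242 and 316 TPM in feather, at 178, 207, 135 and 176 in scutate scale and at 104, 59.4 and 91.4 in reticulate scale. Feather met scutate scale at its lowest library and stayed above reticulate scale, and the difference was 1.03 (SE 0.10, adjusted p = 1.22e-05).

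Emu reticulate scale was higher than scutate scale for 9 genes and lower for 4, where 26.6% of all genes were called, 12.1% higher and 14.5% lower. The 9 include ENSGALG00000012419, which entered the fit only through its reticulate libraries, and 8 of 28 were higher without it. The 214 other epidermis-enriched genes had 33.6% higher and 14% lower, near the 31% and 13.8% of the members. The members' median was 0.23, that of these other genes 0.26 and that of all genes -0.04. ENSGALG00000007132, whose values are given above, differed by 1.52 (SE 0.21, adjusted p = 0.000294). ENSGALG00000014687 was at 18.3, 24.2 and 26.6 TPM in reticulate scale and at 5.90, 6.88, 9.55 and 7.25 in scutate scale, with no overlap and a difference of 1.44 (SE 0.15, adjusted p = 4.5e-05). ENSGALG00000015233 was lower in reticulate scale with a difference of -0.97 (SE 0.15, adjusted p = 0.000851). ENSGALG00000012850 was at 14.9, 13.8 and 13.6 TPM in reticulate scale and at 23.7, 23.3, 21.0 and 21.4 in scutate scale, also without overlap, a difference of -0.61 (SE 0.11, adjusted p = 0.00191). The reticulate placode was a single library, and with morphogenesis alone 9 genes were called, 7 higher and 2 lower, against 24% of all genes and 102 of the 214 other epidermis-enriched genes.

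Alligator claw epidermis held more of 16 genes and less of 8 than the flank and femoral scales. The background was 72.9% called, 42% higher and 30.9% lower. The median was 0.24 for the members and 0.09 for all genes. Summed TPM was 3391.0 to 3828.4 in claw, 2851.2 to 3014.9 in flank scale and 2793.8 to 2959.5 in femoral scale. Claw did not overlap the scales in this sum, which is again weighted towards the most abundant genes. The 207 other epidermis-enriched genes had 108 higher and 63 lower, shares near those of the members.

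ENSGALG00000000452 had the largest alligator claw difference. It was at 39.3, 37.6, 45.2 and 46.4 TPM in claw, at 10.9, 10.6, 6.99 and 8.55 in flank scale and at 16.9, 15.7, 7.47 and 8.15 in femoral scale. Claw was apart from both scales at both stages, by 1.94 (SE 0.07, adjusted p = 2.07e-09). In emu its 18 libraries lay between 41.9 and 89.5 TPM and those of claw were within the spread of the rest, with a smaller claw difference that was also called (0.22, SE 0.08, adjusted p = 0.0297). ENSGALG00000008057, nearly absent from the emu columns, was at 71.4, 50.9, 112.6 and 149.9 TPM in alligator claw, at 30.3, 28.98, 41.3 and 33.1 in flank scale and at 28.9, 36.1, 44.6 and 56.1 in femoral scale. One claw placode library fell within the femoral scale range, and the difference was 1.26 (SE 0.12, adjusted p = 2.79e-06).

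ENSGALG00000011296 was lower in alligator claw, at 3.76, 7.85, 1.25 and 1.89 TPM, than in flank scale (15.53, 14.88, 11.95 and 12.64) or femoral scale (15.7, 23.8, 9.06 and 9.82). The groups did not overlap and the difference was -1.85 (SE 0.16, adjusted p = 1.44e-06), in a gene that was higher in emu claw. ENSGALG00000012032 was at 23.1, 21.7, 16.4 and 20.2 TPM in claw and at 31.8 to 41.4 TPM in the 8 scale libraries, again without overlap, a difference of -0.78 (SE 0.08, adjusted p = 5.07e-06). Flank and femoral scale were not told apart by limma for any member when stages were averaged, with 0 called, where 3.38% of all genes were. A count of 0 among 29 genes is near that share. At an unadjusted p below 0.05 there were 8 members and 58 of the 207 other epidermis-enriched genes. The share over all genes was not computed at that threshold, so these counts are a description. Opposite differences at the 2 stages cancel in this contrast, and single stages were not tested. ENSGALG00000016724 was at 25.6 and 30.8 TPM (flank) against 52.6 and 66.8 (femoral) at the placode. In morphogenesis it was at 20.8 and 23.8 against 17.9 and 16.3.

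The claw differences of emu and alligator, which share no libraries, were set side by side for the 27 genes tested in both. A higher level in both claws was called for 8 genes, where 11.5% of the 4823 genes tested in both species were, and 13 of the 27 were higher in emu claw and 15 in alligator claw. Each claw alone was called higher for a larger share of the tested members (44.8% in emu, 55.2% in alligator) than of all genes (19% and 42%). The other epidermis-enriched genes had shares near those of the members, at 44.4% in emu and 52.2% in alligator. An overlap beyond these single shares was not tested. None was lower in both, 3 were higher in emu and lower in alligator, and 3 were lower in emu and higher in alligator. By sign alone 13 differences were above 0 in both species, 2 below 0 in both, and 6 each way opposed. Shares over all genes were not computed for these lower, opposed and sign counts, which are a description. Across the 27 genes Pearson r was -0.18 and Spearman rho -0.11, given as a description.

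**Figure D5:**
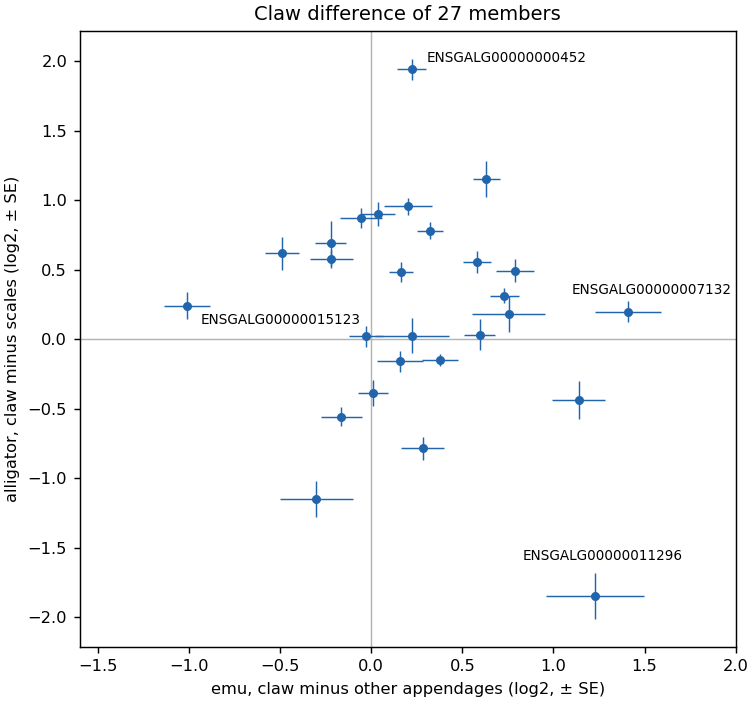
Claw difference in emu (x axis, claw minus the mean of the other appendages, log2) and in alligator (y axis, claw minus the mean of both scales, log2) for 27 genes, with bars of ± 1 SE. Points at upper right (13) are above 0 in both species; ENSGALG00000011296 at lower right is 1.23 in emu and -1.85 in alligator.

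From placode to morphogenesis, emu feather called 6 of 29 genes, 2 rising and 4 falling, where 15.1% of all genes were called, 8.24% rising and 6.9% falling. Of the 214 other epidermis-enriched genes 33.6% were called, 17.8% rising and 15.9% falling, against 20.7% of the members. ENSGALG00000011296 rose, from 16.3 to 21.1 TPM over the 4 placode libraries to 80.1, 39.9, 41.7 and 79.9 TPM in morphogenesis. The stages did not overlap, and the change was 1.56 (SE 0.28, adjusted p = 0.00475). ENSGALG00000014687 rose from 3.98 to 5.72 TPM at the placode to 5.81 to 8.03 TPM, by 0.53 (SE 0.13, adjusted p = 0.0206). ENSGALG00000015744 fell from 100.2, 119, 95.3 and 89.8 TPM to 74.8, 69.4, 76.5 and 62.9 TPM, again without overlap, with a change of -0.50 (SE 0.10, adjusted p = 0.00592). ENSGALG00000016720 fell from 151.5 to 217.6 TPM down to 105.2 to 145.6 TPM, with a change of -0.51 (SE 0.12, adjusted p = 0.0178). The adjusted p of ENSGALG00000014687 and of ENSGALG00000016720 rose above 0.05, to at most 0.0813, as 5 and 4 libraries, respectively, were left out in turn. The count ran from 2 to 8 as single libraries were left out, with 2 called without dorsal placode library 2, femoral placode library 1 or femoral morphogenesis library 2, and 3 without femoral placode library 2 or dorsal morphogenesis library 1.

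The emu foot, taken as the mean change of scutate scale, reticulate scale and claw, called 2 of 29 genes, 1 rising and 1 falling, and 7 at an unadjusted p below 0.05. The background was 17.4% called, 5.87% rising and 11.5% falling, and 69 of the 214 other epidermis-enriched genes (32.2%) were called. At an unadjusted p below 0.05 there were 105 of these 214, and 32 for scutate scale alone (below). Shares over all genes were not computed at an unadjusted p, and the called shares in this paragraph are from the fit without rescaling. ENSGALG00000014687 rose within each foot appendage, from 5.90 and 6.88 to 9.55 and 7.25 TPM in scutate scale, from 18.3 to 24.2 and 26.6 in reticulate scale and from 7.68 to 15.7 and 15.1 in claw. The change was 0.57 (SE 0.13, adjusted p = 0.0126). ENSGALG00000000452 was the other called gene, at -0.32 (SE 0.08, adjusted p = 0.0188). It went from 89.5 to 51.9 and 52.5 TPM in reticulate scale, where the placode is 1 library, from 72.2 to 60.0 and 57.8 in claw, also from 1 library, and from 51.2 and 41.9 to 48.5 and 50.2 in scutate scale, where the stages overlapped. Medians of ratios gave 4 rising and 0 falling, leaving out claw morphogenesis library 1 gave 6, and scutate scale alone, the only foot appendage with 2 libraries at each stage, gave 0 of 29 by limma (2 at an unadjusted p below 0.05), where 0.0275% of all genes were called.

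Chicken foot appendages, a contrast between stages that the selection did not use although it used the same libraries, called 13 of 31 genes, 8 rising and 5 falling. Of all genes tested 36.7% were called, 11% rising and 25.7% falling, against 25.8% rising and 16.1% falling among the members. The 224 other epidermis-enriched genes had 41.1% rising and 21.9% falling. The median change was 0.19 for the members, 0.2 for these other genes and -0.12 for all genes. Medians of ratios, which moved the median of all genes to -0.001, gave 16 members rising and 3 falling, and quantile normalization 12 and 4. The shares of all genes above are from the fit without rescaling and are no background for these counts. Taken singly, scutate scale called 6 (background 18.9%), reticulate scale 3 (5.68%) and claw 7 (21.2%).

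ENSGALG00000015233 fell in each chicken foot appendage, from 282 and 291 to 132 and 166 TPM in scutate scale, from 228 and 242 to 161 and 145 in reticulate scale and from 213.1 and 188.5 to 119.6 and 146 in claw. No stage pair overlapped, and the change was -0.72 (SE 0.07, adjusted p = 4.87e-05). ENSGALG00000003136 fell from 43.1 and 29.4 to 13.7 and 22.5 TPM in scutate scale, from 40.0 and 35.9 to 31.6 and 14.8 in reticulate scale and from 40.2 and 32.6 to 22.2 and 28.6 in claw, a change of -0.75 (SE 0.19, adjusted p = 0.00794). ENSGALG00000014687, which rose in the emu foot, rose in the chicken foot by 0.40 (SE 0.08, adjusted p = 0.00153), from 73.9 to 102.9 TPM at the placode to 82.98 to 150.8 TPM in morphogenesis, with overlap in claw. ENSGALG00000015142 rose by 0.63 (SE 0.20, adjusted p = 0.0245), with a claw placode pair at 58.0 and 161 TPM that was wider apart than the stage change, and its adjusted p was between 0.0501 and 0.0692 when any of 5 libraries was left out.

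Alligator scales called 14 of 29 genes between stages, 9 rising and 5 falling, where 43.2% of all genes were called, 11.6% rising and 31.6% falling. The 207 other epidermis-enriched genes had 35.7% rising and 15.9% falling, near the 31% and 17.2% of the members. Medians of ratios, which moved the median of all genes from -0.13 to -0.002, gave 11 members rising and 3 falling. The shares of all genes above are from the fit without rescaling and are no background for these rescaled counts. The count was 8 without flank placode library 2 and 9 without flank morphogenesis library 1. ENSGALG00000007132 rose from 17.96 and 18.83 to 28.1 and 22.1 TPM in flank scale and from 18.2 and 17.6 to 34.1 and 37.1 in femoral scale, by 0.69 (SE 0.09, adjusted p = 0.00018). ENSGALG00000015233 rose from 167 and 156 to 194 and 185 TPM in flank scale and from 128 and 135 to 287 and 274 in femoral scale, by 0.66 (SE 0.07, adjusted p = 0.000102). Both genes rose more in femoral than in flank scale by these values, which was not tested. The femoral placode was at Ferguson stage 21 and morphogenesis at 23 to 24, a longer interval than 22 to 23 in flank scale. The lanes of the 2 scales also differed.

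ENSGALG00000016724 fell in alligator scales from 25.6 and 30.8 to 20.8 and 23.8 TPM (flank) and from 52.6 and 66.8 to 17.9 and 16.3 TPM (femoral), a change of -1.03 (SE 0.15, adjusted p = 0.000444). ENSGALG00000000452 fell from 10.9 and 10.6 to 6.99 and 8.55 TPM (flank) and from 16.9 and 15.7 to 7.47 and 8.15 TPM (femoral), a change of -0.70 (SE 0.08, adjusted p = 0.000156). Neither gene overlapped between stages within a scale type.

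Alligator claw called 17 of 29 genes between stages, 8 rising and 9 falling, where 54.2% of all genes were called, 13.2% rising and 41% falling. The 207 other epidermis-enriched genes had 40.1% rising and 27.1% falling, against 27.6% and 31% of the members. Medians of ratios, which moved the median of all genes from -0.26 to 0.01, gave 13 members rising and 5 falling, and quantile normalization 9 and 7. The shares of all genes above are from the fit without rescaling and are no background for these counts. Without claw placode library 2 the count was 9. ENSGALG00000015233 rose from 235 and 195 to 562 and 631 TPM, by 1.47 (SE 0.10, adjusted p = 3.56e-06), the opposite sign to its chicken foot change. ENSGALG00000008057 rose from 71.4 and 50.9 to 112.6 and 149.9 TPM, by 1.09 (SE 0.20, adjusted p = 0.000854). ENSGALG00000016724 fell from 18.6 and 32.2 to 5.82 and 5.85 TPM, a change of -1.90 (SE 0.21, adjusted p = 4.43e-05). ENSGALG00000015744 fell from 64.2 and 68.1 to 25.6 and 23.8 TPM, a change of -1.39 (SE 0.14, adjusted p = 2.31e-05). ENSGALG00000008969, the most abundant member, fell from 1121 and 1132 to 646 and 648 TPM (-0.80, SE 0.08, adjusted p = 1.65e-05). The stages of these 5 genes did not overlap, but with 2 libraries at each stage this held for 27 of the 29 genes. The share over all genes was not computed.

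A difference between appendages in the change between stages was called for few members in emu and for more in alligator, by adjusted p. In emu the feather change differed from the foot change for 1 of 29 genes, against 15.1% of all genes, and in alligator the claw change differed from the scale change for 9 of 29, against 35.3%. The emu share (3.45%) was below its background and the alligator share (31%) was near its own, without a test of either. At an unadjusted p below 0.05 the species were close, with 13 of 29 members in emu and 14 of 29 in alligator. Shares over all genes were not computed at that threshold. The low emu count therefore does not show that feather and foot changed alike. The table as a whole also had more such genes in alligator than in emu. The embryo stages spanned were not equal between the appendages compared.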

How the data were processed

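The deposited table holds TPM values made by the authors for 17889 genes in 60 libraries under chicken gene identifiers. Tools listed without roles in the submitters' processing notes are HTSeq 0.5.3p9, TopHat2 2.0.6 and CASAVA, and the column names call the emu and alligator values scaled, in a way not given in the sources used here, nor are the builds. Per the labels' protocols, layers were parted in dispase (10 mg/mL, 4 °C, 13 h) and libraries were strand-specific from polyadenylated RNA. All per-sample columns were used.

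Groups came from the labels. The members, lists and comparisons were chosen with earlier results of these data known. The lists of gene symbols and cell type markers drawn up for this work could not be applied, because 0 identifiers matched a symbol. Each species was fitted separately across all genes with limma 3.58.1 (R 4.3.3) on log2(TPM + 1), which understates changes of low genes, with group means, trended and robust eBayes shrinkage, and Benjamini-Hochberg adjustment at 0.05. Genes needed 1 TPM in at least 2 libraries of the species. Appendage contrasts averaged stages, and feather contrasts averaged tracts. The fit was tested on simulated data.

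Named genes were at most 2 higher and 2 lower in each comparison, those with the largest called differences of the same sign for every library against the mean of the other group, the 2 most abundant, and the 2 smallest and 2 largest ranges in each species. ENSGALG00000012419, ENSGALG00000014170, ENSGALG00000008006 and the second called gene of the emu foot were named after their values were seen.

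Libraries of a group came from separate specimens by number, dorsal and femoral feather libraries often from the same one, and the sampling of embryos is not described further, so a p-value reflects no more than how much these libraries varied. Deviations from the group means were compared over 8 pairs of epidermis libraries with the same specimen number in the titles and the same embryo stage. They had a correlation of 0.127 to 0.474, with 2 of the pairs in emu. Deviations of the 2 libraries of a group mirror each other, so 2 pairs from the same groups gave equal values (0.462 and 0.474). The 8 values are therefore not separate. A fit with specimen as a block was an alternative. Other alternatives were a pseudocount of 0.1, no filter, medians of ratios, quantile normalization, each library left out in turn, and further fits chosen after seeing the data: emu without single-library groups, reticulate against scutate scale in morphogenesis alone, emu scutate stage change alone, and the chicken foot without claw.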

Additional observations from a re-analysis of the deposited data

Results flagged for a closer look

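In emu the change from placode to morphogenesis differed between feather and foot for 1 member by the limma interaction contrast. It was ENSGALG00000015744, with a feather minus foot difference of -0.45 (log2, SE 0.13, adjusted p = 0.041). It fell in feather, and in the foot it stood at 57.6 and 70.0 TPM (scutate scale), 78.7 (reticulate scale) and 81.5 (claw) at the placode and at 65.7 to 80.6 TPM in morphogenesis.

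In alligator the change differed between claw and scales for 9 members, 3 with a higher claw change and 6 with a lower one. ENSGALG00000005610 had the largest difference upward, 1.09 (SE 0.25, adjusted p = 0.00757): claw went from 10.1 and 6.50 TPM to 12.6 and 18.5, and scales from 9.59 to 11.8 TPM to 7.71 to 10.2. ENSGALG00000017276 had a difference of -1.04 (SE 0.14, adjusted p = 0.000369): claw went from 31.3 and 33.0 TPM to 18.8 and 21.0, while scales went from 30.3 to 36.1 TPM up to 38.9 to 46.4.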

How the results depend on the processing

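The block on specimen numbers (replicate block, consensus correlation 0.512 in emu and 0.267 in chicken) gave 25, 17, 18, 13, 5 and 2 members called in the emu comparisons in the order any appendage difference, claw, feather, reticulate scale, feather stage and foot stage, and 12 in the chicken foot, and it changed no call of a named gene. The emu foot stage count, 2 as reported, was 4 with medians of ratios, for which the cause was not tested, and 0 with scutate scale alone, which leaves fewer samples. With single libraries left out, it ran from 2 to 6, and emu counts ran from 23 to 25 (any difference), 15 to 17 (claw), 15 to 18 (feather), 11 to 15 (reticulate scale) and 2 to 8 (feather stage). Alligator counts ran from 21 to 25 (any difference), 22 to 24 (claw), 0 to 2 (flank against femoral scale, 1 without femoral placode library 2 and 2 without either claw placode library), 8 to 17 (scale stage) and 9 to 17 (claw stage), and the chicken foot count from 9 to 15. The number of members with a range below the limit, counted here over all 31 and so with the untested genes near 0 included (16 in emu and 20 in alligator with all libraries), ran from 15 to 17 in emu and 19 to 21 in alligator. Without single-library emu groups, the counts were 23 (any difference), 18 (claw) and 19 (feather). Of 622 alternative values of 31 named results, 606 kept their direction and side of the threshold, 16 kept only the direction, and 0 reversed. TPM keeps no read depth, so precision at low levels could not be judged.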
